A study of Mus musculus with 4 samples.

Results

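The 8 genes described here encode surface proteins by which T cells are recognised and by which they contact other cells: the coreceptor genes Cd4, Cd8a and Cd8b1, the scavenger receptor family genes Cd5 and Cd6, the adhesion receptor gene Cd2, its ligand gene Cd48, and Thy1. They form a list chosen with earlier results of these data known, were matched by symbol in the NCBI RefSeq GRCm38 gene table, and are 8 of the 21900 protein-coding genes in it. What was measured is the position of KAP1 on chromatin in mouse regulatory T cells, by chromatin immunoprecipitation and sequencing (ChIP-seq). The group consists of 2 samples precipitated with the KAP1 antibody 1Tb-A9 (Active Motif), and 2 samples made without antibody serve as input. All 4 come from C57BL/6 spleen regulatory T cells that were grown for 2 weeks after sorting. Age, any treatment in culture, and whether the replicates are separate animals or cultures are not stated, so differences between replicates may be technical. The data hold no knockout and no second cell type. The input samples were not analysed here.

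KAP1, encoded by Trim28, is a corepressor that does not choose DNA sequences itself. KRAB zinc finger proteins bring it to DNA, and it recruits enzymes that place repressive histone marks, but it is also found at active promoters. CD4 and CD8 are the coreceptors that bind MHC molecules beside the T cell receptor and carry the kinase Lck to it. Regulatory T cells belong to the CD4 lineage, in which Cd4 is kept on and the Cd8 genes are kept silent. The lists record chromatin positions and not RNA, so neither the identity of the cells nor the activity of any gene can be read from them.

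Each KAP1 sample has its own list of summits, meaning the base of greatest enrichment in a peak, and every summit has a score from the peak caller. This is a p-value or a q-value written as its −log10. The lists are of very unequal length, with 8862 summits in replicate 1 and 79515 in replicate 2, a ratio of 8.97. Read depth is unknown. The authors' scores are used only within a list, and the percentile of a score is the share of summits of its list at or below it. Replicate 1 scores fall on repeated values (1188 summits share the score 5.10), so its percentiles are coarse. A summit is called shared when a replicate 1 summit has a replicate 2 summit within 200 bp. Gene ends are the 1 kb on both sides of a gene's outermost coordinates, the body is the rest of the gene, and the flank reaches 20 kb beyond it. The gene table has no exons or introns, and it gives no strand. All positions are mm10, counted from 1.

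Shared KAP1 summits lay inside or within 20 kb of 6 of the 8 genes. At Cd4 and Cd5 the nearest shared summit was 19826 and 13557 bp outside the gene. Only Cd6 had a shared summit at an end, 1 of 8 members, against 8.56% of all coding genes. It was also the only member with an end summit in either list alone, against 9.42% of coding genes in replicate 1 and 22.2% in replicate 2. Cd2, Cd6, Cd48 and Thy1 had shared summits in the body, 4 of 8 members, against 12.4% of the 19301 coding genes long enough to have a body. The same 4 members had a replicate 1 summit in the body, against 13.3% of these genes, and 6 members had a replicate 2 summit there, against 54.4%. With replicate 2 reduced to its 8862 highest scores, the end count was 0 of 8 members, against 3.88% of coding genes, and the body count was 2 of 8 (Cd48 and Thy1), against 6.12%. With the flanks included, Cd4 and Cd5 were added, giving 6 of 8 members, against 32.7% of coding genes. The same 6 members had a replicate 1 summit in that span, against 34.3% of coding genes, and 7 members had a replicate 2 summit, against 80.9%. Cd8a and Cd8b1 had no shared summit and no replicate 1 summit in this span. The end count is near its background and says nothing particular of these genes, and no test was made on a list of 8 genes chosen with earlier results of these data known. Body and flank counts depend on gene length. The members measured from 5196 to 40724 bp with a median of 17813 bp, close to the coding median of 17146 bp. No share matched for gene length was computed, so the part played by length was not tested.

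Replicate 1 had 19 summits within 20 kb of the members and replicate 2 had 23. Of these, 12 pairs were shared, made up of 1 at an end, 5 in bodies and 6 in flanks. Replicate 2 was the longer list over the genome, yet over these genes the lists were almost equally dense. Replicate 1 averaged 2.38 summits per member, against 0.616 per coding gene. Replicate 2 averaged 2.88 per member, against 3.70 per coding gene. The shared summits averaged 1.5 per member, against 0.536 per coding gene.

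**Figure D1:**
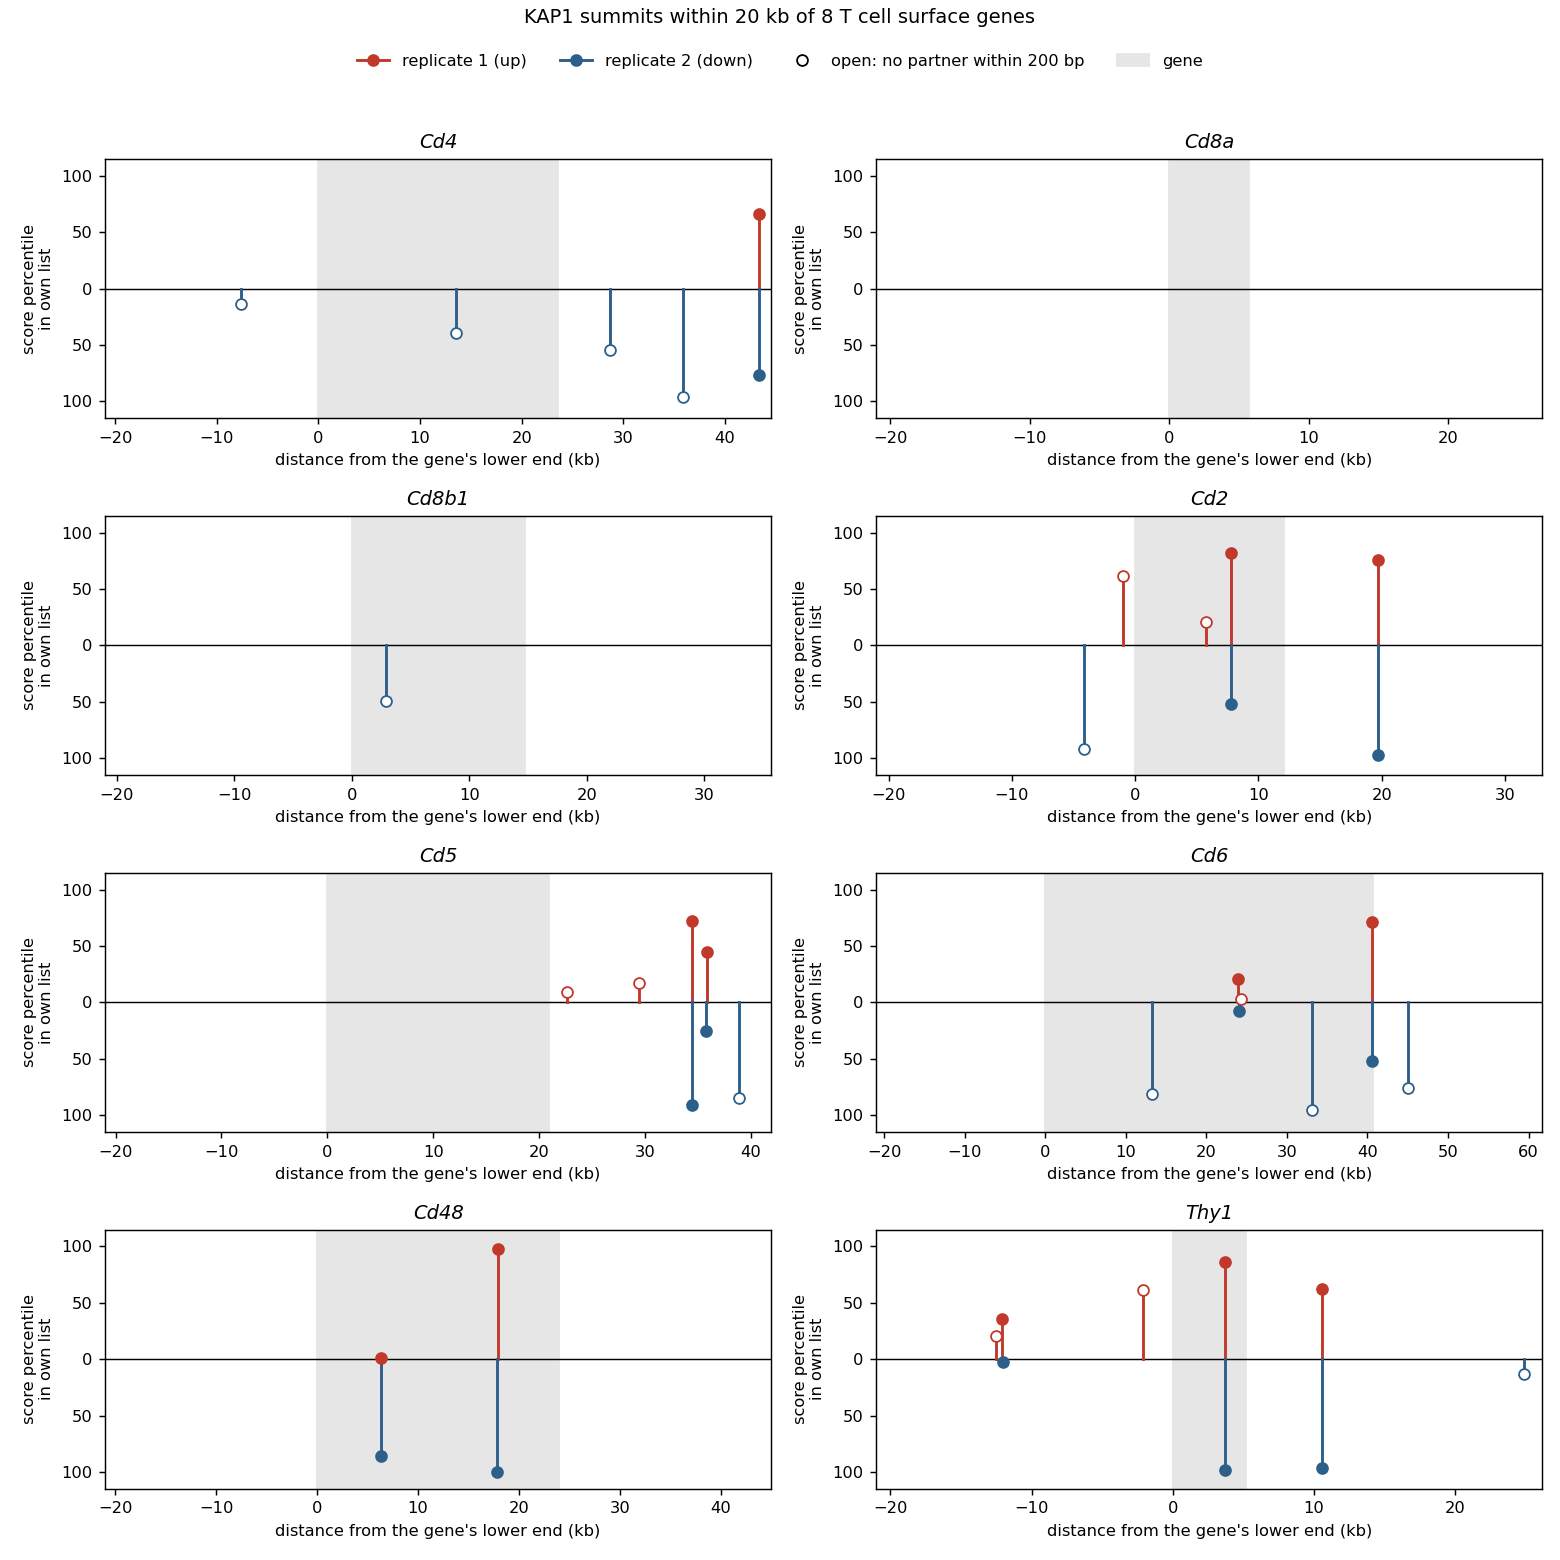
KAP1 summits within 20 kb of each of the 8 genes, by distance in kb from the lower coordinate of the gene (grey box). Replicate 1 points up and replicate 2 down, the height is the score's percentile in its own list, and open circles have no partner within 200 bp in the other replicate. Cd8a is empty, Cd8b1 has a single replicate 2 summit, and Cd48 and Thy1 hold tall pairs inside the gene.

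Promoter sequence was at hand for 3 of the members, Cd8a, Cd5 and Cd48, in the RefSeq promoter table (GRCm38.p6). None of the 3 windows of 250 bases before the transcript start held a summit of either replicate. They are shown beside the window of Slamf1, the next gene of the SLAM receptor family above Cd48, which held a shared summit. Capitals mark matches, on either strand, to 7 motifs. The core motif of Runx factors was searched as TGTGGT. A longer form of it, which holds the core on the opposite strand, was searched as AACCACA. The E box was spelled CAGGTG, and the motif of Ets factors was spelled CCGGAAG. The motif of Gata factors was spelled AGATAA. The GC box was spelled GGGCGG, and part of the cAMP response element was spelled TGACGT. The windows are chr6:71373177-71373426 on the plus strand for Cd8a, chr19:10738975-10739224 on the minus strand for Cd5, chr1:171681742-171681991 on the plus strand for Cd48, and chr1:171766882-171767131 on the plus strand for Slamf1. The Cd48 window lies inside the gene as bounded here, whose lower end is at 171681245. The Cd5 window crosses the higher end of Cd5, at 10739026.
Cd8a: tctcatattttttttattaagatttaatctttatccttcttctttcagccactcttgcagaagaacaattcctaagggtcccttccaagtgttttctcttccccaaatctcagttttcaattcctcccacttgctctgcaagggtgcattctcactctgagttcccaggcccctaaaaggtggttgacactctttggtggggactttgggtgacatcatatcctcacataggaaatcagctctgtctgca
Cd5: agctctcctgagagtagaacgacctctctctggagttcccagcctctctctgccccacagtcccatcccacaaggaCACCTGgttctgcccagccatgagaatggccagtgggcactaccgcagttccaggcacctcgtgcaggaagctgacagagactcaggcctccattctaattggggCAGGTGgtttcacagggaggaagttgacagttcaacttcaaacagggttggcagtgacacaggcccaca
Cd48: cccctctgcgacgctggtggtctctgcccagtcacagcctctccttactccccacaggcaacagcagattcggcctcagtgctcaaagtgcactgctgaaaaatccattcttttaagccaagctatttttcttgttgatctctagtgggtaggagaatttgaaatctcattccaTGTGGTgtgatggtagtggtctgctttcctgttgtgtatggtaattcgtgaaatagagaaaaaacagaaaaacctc
Slamf1: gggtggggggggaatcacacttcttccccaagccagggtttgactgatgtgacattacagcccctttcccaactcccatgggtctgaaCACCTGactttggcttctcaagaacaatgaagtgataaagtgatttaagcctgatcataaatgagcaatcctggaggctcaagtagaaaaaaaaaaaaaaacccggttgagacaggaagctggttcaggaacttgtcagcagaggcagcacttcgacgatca

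The Cd8a window held none of the 7 motifs and no CpG. The Cd5 window held 2 E box matches, at 69 and 174 bases before the start, and the Slamf1 window held 1, at 162 bases; 17.2% of the 32851 windows of the same length hold this motif. The Cd48 window held 1 Runx core match at 76 bases before the start, a motif found in 14.0% of windows. Cd5, Cd48 and Slamf1 had 3, 4 and 3 CpG, against a median of 6 over all windows. A match describes letters and is not a binding site. The Slamf1 summit lay 26 bases before the start in replicate 1 and 24 in replicate 2. The nearest summits to the other windows were 206182 bp (replicate 1) and 30247 bp (replicate 2) away for Cd8a, 1497 and 13365 bp for Cd5, and 5647 and 5648 bp for Cd48.

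Among the coreceptor genes, Cd4 had summits around it, in Lag3 in both replicates, and the Cd8 genes had almost none. Cd4 (chromosome 6, 124864693 to 124888247) encodes the coreceptor for MHC class II and is the lineage's own coreceptor gene. It had 1 replicate 1 summit and 5 replicate 2 summits within 20 kb, and 34.3% and 30.9% of coding genes had at least as many. At least 1 shared summit within 20 kb was found at 32.7% of coding genes, so counts like those of Cd4 were common. The only shared pair, at position 124908073, lay 19826 bp above the gene and 3714 bp inside its neighbour Lag3, whose product is an inhibitory receptor that also binds MHC class II. Its scores were 9.50 in replicate 1 and 11.5 in replicate 2, percentiles 66.5 and 76.6. The pair stands just inside the 20 kb limit, and the next shared summit, also in Lag3, stands just outside it at 23889 bp from Cd4. Within Cd4 itself there was only a replicate 2 summit, at position 124878230, 10017 bp from the higher end, with a score of 7.82 (percentile 39.5). Between Cd4 and Lag3 lay 2 further summits of replicate 2 alone, at 5146 and 12367 bp above Cd4. The second of them, at position 124900614, had the highest score of the unpaired replicate 2 summits, 21.1 (percentile 95.8). The last replicate 2 summit, below Cd4, had a score of 5.64 and lay at an end of P3h3, 654 bp inside that gene.

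Cd8a and Cd8b1 encode the alpha and beta chains of the CD8 coreceptor for MHC class I and lie near each other on chromosome 6. Cd8a (71373427 to 71379171) had no summit of either replicate within 20 kb, as had 19.1% of coding genes. Cd8b1 (71322788 to 71337492) had a single summit, of replicate 2, in its body at position 71325712, 2924 bp from the lower end, with a score of 8.31 (percentile 49.4). Having replicate 2 summits but none of replicate 1 was common, being true of 46.7% of coding genes. The nearest replicate 1 summit to either gene was at position 71166995, 155793 bp below Cd8b1 and 206432 bp below Cd8a. Of coding genes on the numbered chromosomes, 31.1% and 26.4% were at least as far from a replicate 1 summit. Both genes fell in 1 summit-free interval of 466.3 kb in replicate 1, and 11.5% of the intervals between neighbouring summits on the numbered chromosomes were at least as long. In replicate 2, Cd8a stood in an interval of 78.0 kb (8.26% at least as long), bounded above by a summit in Rmnd5a at 24502 bp. Of the same coding genes, 13.9% were at least as far from a replicate 2 summit. The median interval was 47.7 kb in replicate 1 and 16.6 kb in replicate 2. Intervals of these lengths were thus found at many other places in the genome. Thy1, which is about as short as Cd8a (5196 and 5745 bp), had 3 shared summits in a span of like size. Thy1 is an extreme case, since 1.05% of coding genes had at least its density of shared summits. Whether span size matters was not tested.

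Cd5 and Cd6 encode related receptors of the scavenger receptor cysteine-rich family. CD5 dampens signalling from the T cell receptor, and CD6 binds the adhesion molecule ALCAM. The genes are neighbours on chromosome 19, on either side of the long noncoding RNA gene A430093F15Rik. KAP1 lay at an end of Cd6, in the Cd6 body, and in the noncoding gene between them. Cd6 (10789339 to 10830062) had its end summit at position 10829960 in replicate 1 and 10829955 in replicate 2, 102 and 107 bp inside the higher end. The scores were 10.7 and 8.74, percentiles 71.0 and 51.9. This is the middle of the field: of the 1875 coding genes with a shared end summit, 726 had one with a replicate 1 score at least as high and 1294 one with a replicate 2 score at least as high. No promoter window of Cd6 was at hand, so whether this end is its transcript start was not established.

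The Cd6 body held 1 shared pair, at positions 10813305 and 10813336, with low scores in both lists, 4.61 and 5.26 (percentiles 20.8 and 7.50). An unpaired replicate 1 summit, score 2.31, lay 342 bp from the nearest replicate 2 summit. Replicate 2 alone had 2 stronger summits in the body, with scores of 12.5 and 20.3 (percentiles 81.6 and 95.5), and 1 in the flank at 4316 bp above the gene with a score of 11.4. The highest replicate 2 score at Cd6 thus stood where replicate 1 had no summit.

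Cd5 (10718107 to 10739026) had no summit of either replicate inside the gene or at its ends. All of its 4 replicate 1 summits and 3 replicate 2 summits lay above the gene, and all but 1 lay inside A430093F15Rik. The shared pairs were at positions 10752583 and 10753933, 13557 and 14907 bp above Cd5. The first had scores of 11.0 and 15.7 (percentiles 72.0 and 90.8), and the second had 6.59 and 6.69 (44.9 and 25.2). The other replicate 1 summits were weak, with scores of 3.21 at 1695 bp above Cd5 and 4.17 at 8495 bp. The unpaired replicate 2 summit, at 18004 bp, had a score of 13.4. A stronger shared summit of the same noncoding gene, at position 10763932 with a replicate 1 score of 19.8, lay beyond the limit of both neighbours, 24906 bp from Cd5 and 25407 bp from Cd6.

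Cd2 and Cd48 encode a receptor and its ligand in the mouse, both of the immunoglobulin superfamily, and their contact helps T cells adhere and respond. Both genes held shared summits in the body. Cd48 (chromosome 1, 171681245 to 171705258) had the strongest KAP1 site of the 8 genes. It lay at position 171699139 in replicate 1 and 171699114 in replicate 2, 6119 and 6144 bp inside the higher end. The scores were 40.5 and 95.3, which ranked 195 of 8862 summits in replicate 1 and 49 of 79515 in replicate 2. Of the 2399 coding genes with a shared body summit, 73 had one with a replicate 1 score at least as high (3.04%), and 21 had one with a replicate 2 score at least as high (0.875%). The other Cd48 pair, 1 bp apart at position 171687638, had very different standing in the lists. Its score of 2.23 in replicate 1 was at percentile 1.13, and its score of 13.9 in replicate 2 was at percentile 86.3. Cd48 had no unpaired summit of either replicate within 20 kb.

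Cd2 (chromosome 3, 101275908 to 101287939) had a shared body summit at position 101283658, 4281 bp inside the higher end, with scores of 14.4 and 8.73 (percentiles 81.9 and 51.9). Its other shared summit, at position 101295587, was 7648 bp above the gene in the long noncoding RNA gene Gm32803, with scores of 12.4 and 27.2 (76.0 and 97.6). The ranks of these sites were thus in opposite order in the lists. Replicate 1 had an unpaired body summit with a score of 4.61. It also had an unpaired summit with a score of 8.34 at 1013 bp below the lower end, which is just outside the 1 kb that counts as an end. Replicate 2 had its own unpaired summit on that side, at 4141 bp, with a score of 16.6.

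Thy1 (chromosome 9, 44043384 to 44048579) encodes a small glycoprotein anchored in the membrane by lipid and is a classical marker of mouse T cells. It had 3 shared summits within 20 kb, the most of the 8 genes; 4.99% of coding genes had at least as many. Per 100 kb of gene and flank this was 6.64 shared summits, and 1.05% of coding genes had at least that density. The standing of Thy1 differed between the lists. In replicate 1, 1.44% of coding genes had at least its 5 summits and 0.269% at least its density. In replicate 2, 42.2% had at least its 4 summits and 13.8% at least its density. The strongest site was in the body at position 44047121, the same base in both replicates, with scores of 17.1 and 37.6 (percentiles 86.2 and 98.8). It lay 1458 bp inside the higher end and would count as an end summit only with a wider end. A second pair at position 44053975, 5396 bp above the gene, had scores of 8.40 and 21.9 (62.0 and 96.1). The third, at position 44031328 in the noncoding gene Gm39323, was weak in both lists, with scores of 5.10 and 4.22 (35.3 and 2.24). Replicate 1 had 2 unpaired summits below Thy1, with scores of 4.61 and 8.34, and the weaker of them lay 465 bp from a replicate 2 summit. The only unpaired replicate 2 summit, in Usp2 and Gm39325 at 19684 bp above Thy1, had a score of 5.64.

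**Figure D2:**
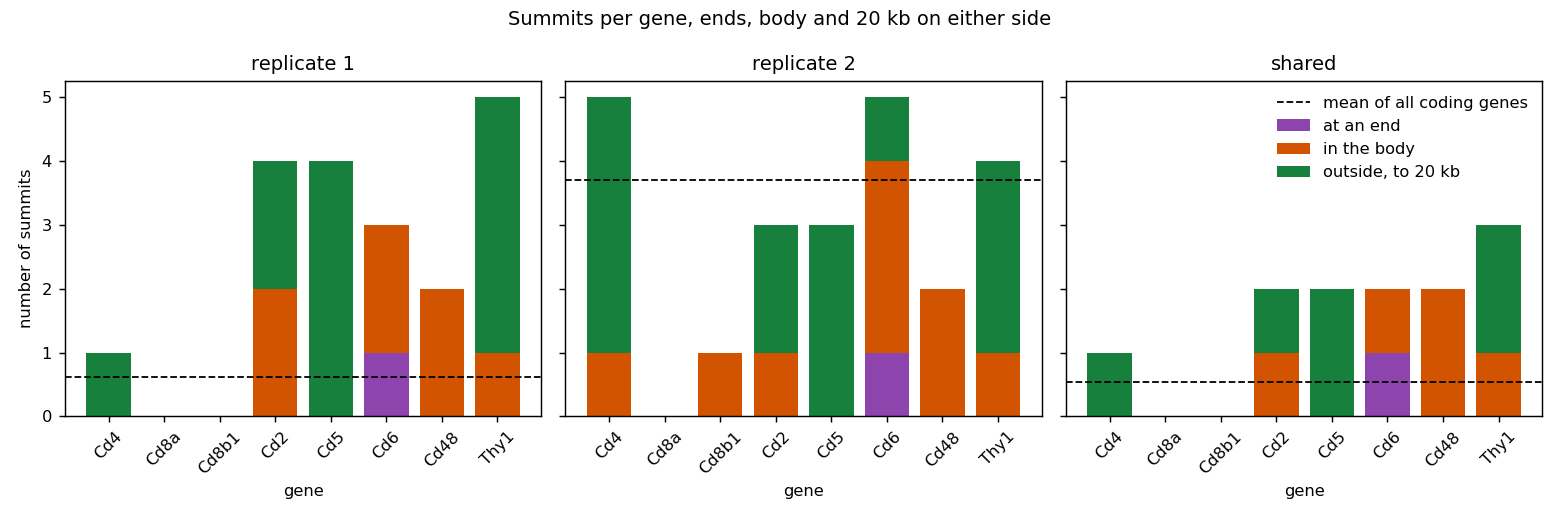
Number of summits at the ends, in the body and in the 20 kb on either side of each of the 8 genes, in replicate 1, replicate 2 and as shared summits; dashed lines are means over all coding genes. In replicate 1, 5 of the 8 genes have 2 or more summits, against 14.8% of all coding genes, whose mean is 0.616. In replicate 2 the genes lie on both sides of the mean of 3.70.

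The replicates placed the shared sites within a few bases of each other. Compared with the genome, a smaller share of replicate 1 summits and a larger share of replicate 2 summits had a partner here. The 12 pairs were 0 to 43 bp apart with a median of 5.5 bp, beside a median of 6 bp over all 7720 shared summits. Of the 19 replicate 1 summits, 12 were shared (63.2%), against 87.1% of all 8862. The share was 87.2% for the 7652 replicate 1 summits within 20 kb of any coding gene. Of the 23 replicate 2 summits, 12 were shared (52.2%), against 9.71% of all 79515. The replicate 2 share depends on how many replicate 1 summits lie here, 2.38 per member against 0.616 per coding gene. The 7 unpaired replicate 1 summits, which lay by Cd2, Cd5, Cd6 and Thy1, had scores from 2.31 to 8.34 with a median of 4.61. The 12 paired ones had scores from 2.23 to 40.5 with a median of 10.1. In replicate 2 the scores overlapped widely, with medians of 12.7 for its 12 paired summits and 11.4 for its 11 unpaired ones. A single group of 2 samples allows no test between them.

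**Figure D3:**
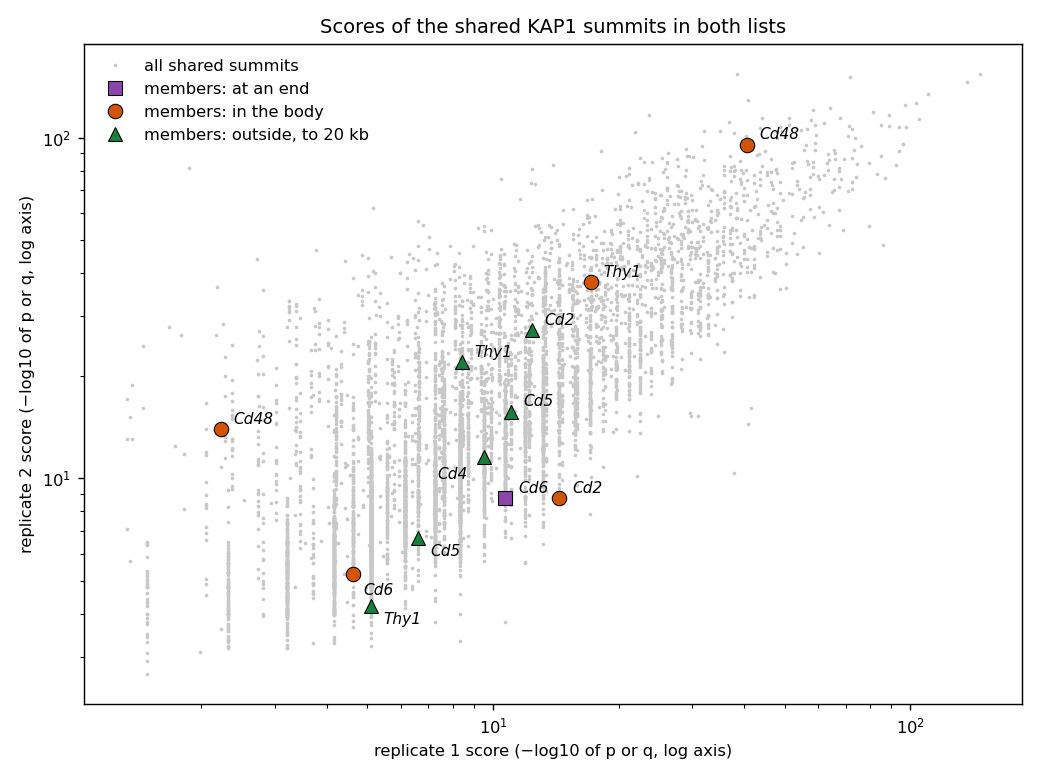
Replicate 1 score (x) and replicate 2 score (y) of the 12 shared summits of the members, both on log axes as −log10 of p or q, over all 7720 shared summits in grey. The strong Cd48 site stands near the top of both lists at 40.5 and 95.3, and the other Cd48 site has a replicate 1 score of 2.23.

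Long noncoding RNA genes held 4 of the 12 shared sites (33.3%), against 11.0% of all 7720 shared summits, and all 4 were flank sites, by Cd2, Cd5 and Thy1. The 11.0% covers summits at every location, and no share was computed for flank summits alone. An excess in noncoding genes was therefore not established. These 4 sites stem from 3 noncoding genes, and 2 of them lie in A430093F15Rik, so they are not independent.

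Around the 8 genes, 10 lists of related genes and of other cell types were counted in the same way. They hold 81 distinct genes, all of which were found in the table. Of the CD3 chain genes, which complete the T cell receptor, 1 of 4 had a shared end summit, against 8.56% of coding genes. It was Cd3g, with scores of 5.05 and 13.4 at 245 bp inside its lower end. Of 6 binding partners and ligands of the members, none had a shared end summit, against 8.56% of coding genes. Of the 6, 2 had a shared body summit, against 12.4% of coding genes long enough to have a body. These were Lck, the kinase carried by CD4 and CD8 (4.17 and 4.35), and Alcam, the ligand of CD6 (7.81 and 21.7). Among 8 genes of the SLAM family, to which Cd48 belongs, 2 had a shared end summit, against 8.56% of coding genes. Slamf1 had a strong one 25 bp outside its lower end, with scores of 40.5 and 68.0, and Ly9 had one 28 bp inside its higher end, with scores of 5.10 and 7.72. Cd48 and Slamf1 both carried sites in the top of the lists, inside the gene in Cd48 and at the gene end in Slamf1. The Ly9 site was at percentiles 35.3 and 38.9. Of the 8, 1 had a shared body summit, at percentiles 35.3 and 54.4, against 12.4% of coding genes long enough to have a body. High scores were thus not general in the family.

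Other lymphocyte surface glycoprotein genes had shared end summits in 6 of 18 cases, against 8.56% of coding genes. They were Cd28, Cd37, Cd52, Cd69, Cd96 and Ptprc. The highest scores were those of Cd28, a costimulatory receptor gene (15.9 and 27.5), and the lowest those of Cd96, a receptor gene of T and NK cells (4.17 and 5.01). Genes that regulate Cd4 and Cd8 in T cell development had shared end summits in 4 of 17 cases, against 8.56% of coding genes, and body summits in 9 of 17, against 12.4%. These are long genes, with a median of 57346 bp against 17146 bp for coding genes, and longer genes have more room for a body summit. The end summits were those of Cbfb (27.7 and 82.6), Tox (22.5 and 34.6), Bcl11b (9.50 and 8.27) and Tcf3 (7.25 and 9.26). Tox encodes a nuclear factor needed for CD4 lineage development, and Cbfb the partner of the Runx factors that silence Cd4 in the CD8 lineage. Scavenger receptor relatives of Cd5 and Cd6 had 1 of 7 with a shared end summit, against 8.56% of coding genes. It was Lgals3bp, with scores of 1.48 and 4.88 and a gap of 136 bp between replicates. None of 7 B cell markers or 6 myeloid markers had a shared end summit. At the coding share of 8.56%, none is near background in lists this short. Of 5 NK cell markers, Klrb1c had one (20.4 and 34.3). Of 4 regulatory T cell markers, Il2ra (58.3 and 78.3) and Ctla4 (2.74 and 9.08) had one. Replicate 2 summits within 20 kb were found at 7 of 7 B cell and 6 of 6 myeloid markers, against 80.9% of coding genes. They were also found at 4 of 5 NK cell and 4 of 4 regulatory T cell markers. These lists are short and were not tested.

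**Figure D4:**
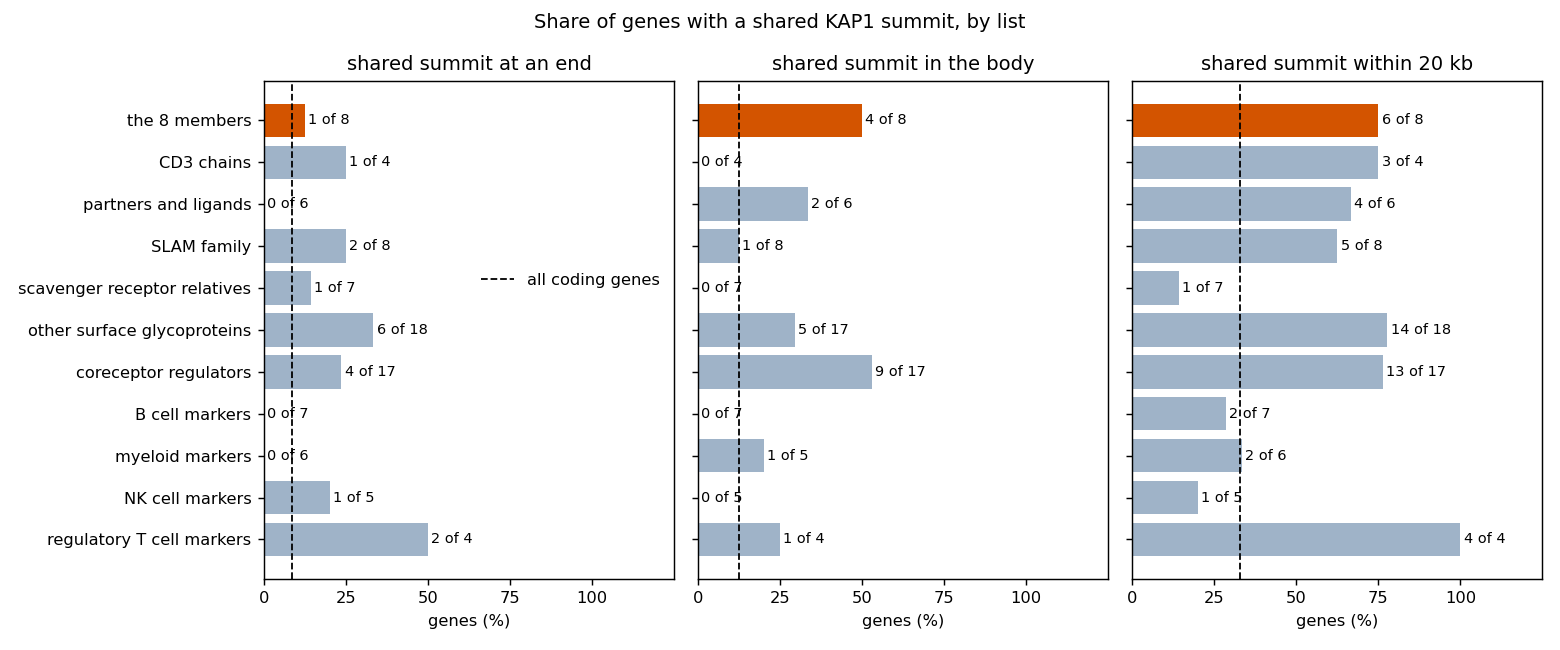
Percentage of genes with a shared KAP1 summit at an end, in the body and within 20 kb, for the 8 members (top, orange) and 10 other lists (blue), with all coding genes as dashed lines at 8.56, 12.4 and 32.7%. The members have 1 of 8 at an end, 4 of 8 in the body and 6 of 8 within 20 kb. Within 20 kb, B cell, myeloid and NK markers have 2 of 7, 2 of 6 and 1 of 5, and scavenger receptor relatives have 1 of 7. Other surface glycoproteins have 14 of 18, coreceptor regulators 13 of 17, CD3 chains 3 of 4 and regulatory T cell markers 4 of 4. The SLAM family has 5 of 8 and partners and ligands have 4 of 6. A share like that of the members is thus also found in related lists.

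Likeness to Thy1, the member with the most shared summits, was measured over the related genes as the sum of absolute differences in 9 counts (replicate 1, replicate 2 and shared summits at ends, in the body and in the flank). Among these related genes, which do not include the other members, the nearest were Cd27, Pstpip1 and Tcf3, each at a sum of 5. The member Cd5 had the same counts as Thy1 except in the body, where Cd5 had none. Thy1 had 1 shared body and 2 shared flank summits. Cd27 and Pstpip1 each had 2 shared flank summits and none in the body, while Tcf3 had 1 at an end, 1 in the body and 3 in the flank. This rests on 2 lists and small counts.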

How the data were processed

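KAP1 ChIP-seq was done on 2 samples, with 2 inputs not used here. Per the labels' protocols, libraries came from sonicated chromatin, with selection for 150 to 400 bp. The submitters' processing notes list Bowtie2 2.2.9, Picard 2.1.1, MACS2 2.2.1 and mm10. Settings, controls and thresholds were not given in the sources used here. The deposited files are 1 summit list per KAP1 sample, not pooled, and each deposited score is a −log10 value, of either a p-value or a q-value (which is not stated).

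Genes came from the RefSeq table of GRCm38.p6, whose coordinates are those of mm10. Summits were paired within 200 bp, and classed against gene ends (1000 bp), bodies and 20 kb flanks with Python 3.11.15, numpy 2.4.6 and pandas 2.3.3. A body needs a gene of at least 2003 bp. The pairing of summits and the counts at ends, in bodies and in flanks were tested on simulated summits. Counts are set beside all coding genes with no test. Promoter letters were searched in 250 bases before the start. Read depth is unknown for both lists, and so is the precision it gives.

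Named are the 8 members, coding genes that hold or adjoin their summits, and genes of the 10 related lists with a shared end summit. Also named are the 3 genes of these lists most like the member with the most shared summits. The noncoding genes that hold summits, and Lck and Alcam with body summits, were named after their values were seen. Members and lists were chosen with earlier results of these data known. Alternatives were pairing at 50 and 500 bp, scores at or above the median, replicate 2 reduced to the length of replicate 1, each replicate alone, ends of 500 and 2500 bp, and flanks of 10 and 50 kb.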

Additional observations from a re-analysis of the deposited data

How the results depend on the processing

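The 4 counts (members with a shared summit at an end, in the body and within 20 kb, and the number of shared summits) were recomputed under 10 alternatives, and 34 of the 40 values stayed within 1.5 times the main count. With replicate 2 reduced to its 8862 highest scores, no member had a shared end summit (0 of 8, against 3.88% of coding genes), because the Cd6 score of 8.74 in replicate 2 falls below the highest 8862. Under the same reduction 2 of 8 members had a shared body summit, Cd48 and Thy1 (against 6.12%), 4 of 8 had a shared summit within 20 kb (against 18.0%), and 5 shared summits were left. With ends of 2500 bp, 2 of 8 members had an end summit, Cd6 and Thy1, against 12.7%. Using each replicate alone, the number of summits within 20 kb was from 19 (replicate 1) to 23 (replicate 2), against 12 shared. With flanks of 10 kb, Cd4 and Cd5 no longer had a shared summit, leaving 4 of 8 members, against 26.1% of coding genes. With flanks of 50 kb, 6 of 8 members had one, against 45.7%, and Cd8a and Cd8b1 still had none. Read depth is unknown, so a missing summit in either list is not shown to be missing binding. No paired analysis was possible because only the KAP1 samples have lists, and no result comes from a test between groups.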
